A study of Mus musculus with 6 samples.

Results

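The genes described here are mouse zinc finger genes with symbols from Zfp700 to Zfp999, made of Zfp and a number with nothing after it. The rule is a naming rule and uses no measured value. Of 130 such symbols in the annotation, 97 were among the 14162 genes of the deposited tables, and the other 33 were not analysed here. RNA was sequenced from lungs taken from mouse embryos at E12.5, in the middle of gestation. The 3 libraries called Dnmt1KO came from ShhCre-Dnmt1KO embryos, in which Cre recombinase expressed from the Shh locus, active in the epithelium that lines the airways, deletes Dnmt1. The 3 WT libraries are of wild-type littermates, and the labels name no Cre allele for them. No sorting is named, and nothing in the labels ties a library to a separate embryo. The p-values therefore reflect the spread among these libraries, part of which may be technical. Dnmt1KO replicate 1 had 3 reads from 4 genes of the Y chromosome, against 4301 and 4780 in Dnmt1KO replicates 2 and 3. It thus comes from other tissue than replicates 2 and 3, while separate sources of the remaining libraries are not given. Mesenchyme and vessels lie outside the Cre lineage and are in every library, and in such bulk samples fewer cells of a type and less RNA per cell cannot be told apart.

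C2H2 zinc finger proteins read DNA through tandem fingers, each holding a zinc ion between paired cysteines and histidines. In many of them a KRAB domain at the front end binds the corepressor Trim28, which brings in Setdb1, the enzyme that methylates histone H3 at lysine 9, together with heterochromatin proteins and DNA methylation. In the mouse these KRAB proteins are best known for silencing endogenous retroviruses and some imprinted loci in the early embryo. Their genes sit in clusters of recent duplicates, so neighbours can be near copies of each other. Dnmt1, the maintenance methyltransferase, copies DNA methylation onto newly made strands, and the methylated base is the C of a CG pair.

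From annotated coding sequences, a profile of the KRAB A box, the part of the domain that contacts Trim28, was found in 76 of the 97 genes and not in 20, while Zfp939 had no annotated coding sequence. The lowest profile score among the 76 was 55.3 bits, and the highest among the 20, that of Zfp746, was 1.76 bits. A box that differs much from the profile would be missed, so the 20 are genes in which none was found. The median number of C2H2 fingers was 11 with the KRAB A box and 6.5 without it, and the highest was 23. By gene order, 53 members lay in 11 runs of at least 3 members on chromosomes 4, 6, 7, 8, 13 and 17, the largest holding 12 genes on chromosome 17 and 8 on chromosome 4. Members with a KRAB A box also had fewer CG pairs before their start. The 250 bases upstream of the RefSeq start (GRCm38.p6) held a median of 7 CG in 70 KRAB members and 20 in 15 members without the box, against 16 in the 10826 tested genes with such a window. At least 1 CG was present in 91.7% of the 27025 windows of the table, 1 a gene, whose median was 6. More than 12 CG were present in 31.8% of all windows and 62.3% of those of tested genes, in 14 of the 70 KRAB members (20%) and in 11 of the 15 others (73.3%).

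Upstream windows of 4 members are shown because Zfp809 and Zfp738 had the smallest p-values among the higher members, Zfp775 had the smallest among the lower ones, and Zfp777 had the most CG of the KRAB members. They are Zfp809 (chr9:22225453-22225702, plus strand, 11 CG), Zfp775 (chr6:48601757-48602006, plus strand, 18 CG), Zfp777 (chr6:48047795-48048044, minus strand, 42 CG) and Zfp738 (chr13:67683513-67683762, minus strand, 5 CG). Each is written 5′ to 3′ on the strand of the gene, from RefSeq, with every CG in capitals.
Zfp809: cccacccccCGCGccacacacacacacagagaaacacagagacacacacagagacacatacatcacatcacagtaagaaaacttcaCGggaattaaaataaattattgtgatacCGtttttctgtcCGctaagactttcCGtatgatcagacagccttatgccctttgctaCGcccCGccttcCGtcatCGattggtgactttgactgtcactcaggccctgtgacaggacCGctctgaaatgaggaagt
Zfp775: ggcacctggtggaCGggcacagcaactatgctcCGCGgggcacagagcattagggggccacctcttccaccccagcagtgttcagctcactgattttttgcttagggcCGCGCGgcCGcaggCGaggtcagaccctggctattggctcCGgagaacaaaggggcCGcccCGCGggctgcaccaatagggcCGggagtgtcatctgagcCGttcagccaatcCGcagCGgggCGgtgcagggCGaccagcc
Zfp777: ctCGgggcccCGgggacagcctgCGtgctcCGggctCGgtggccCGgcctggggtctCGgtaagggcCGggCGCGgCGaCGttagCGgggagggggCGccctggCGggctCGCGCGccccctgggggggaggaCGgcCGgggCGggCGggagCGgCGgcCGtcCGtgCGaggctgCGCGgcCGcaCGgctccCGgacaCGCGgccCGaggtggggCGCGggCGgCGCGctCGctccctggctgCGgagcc
Zfp738: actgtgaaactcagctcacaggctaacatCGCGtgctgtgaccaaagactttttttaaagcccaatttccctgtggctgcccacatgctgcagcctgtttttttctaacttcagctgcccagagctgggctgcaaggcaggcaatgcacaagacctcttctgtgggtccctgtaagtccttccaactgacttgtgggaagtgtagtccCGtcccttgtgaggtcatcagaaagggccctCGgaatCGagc

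Before the members, the targeted gene was checked. Dnmt1 stood at deposited log2 values of 15.57, 15.40 and 15.31 in Dnmt1KO and 15.72, 15.74 and 15.76 in WT. Every Dnmt1KO value was below every WT value, and the difference of -0.31 ± 0.09 (SE) did not pass limma's test over all genes (adjusted p = 0.507). Two-sided and exact, a permutation of the 6 libraries returned p = 0.1, which is the lowest value possible with 3 in each group. The tables gave 18192629 to 25597662 whole reads per library, and the 97 members took between 0.234% and 0.241% of them. Markers of lung epithelium, with all 8 of 8 measured, summed to 613 to 896 rpm (reads scaled to the library total) in Dnmt1KO and 722 to 819 in WT. Those of lung mesenchyme, 8 of 8 measured, summed to 2253 to 2919 and 2268 to 2801. For both lists no marker had 0 reads in any library. Some of the other lists differed more. Liver markers, 4 of 6 measured, summed to 14.9 to 28.6 rpm in Dnmt1KO and 3.01 to 5.29 in WT, and germ cell markers, 4 of 6 measured and 3 called higher by limma, to 52.8 to 127 and 0.703 to 1.98, with Dazl at 0 reads in at least 1 library. Cardiac markers, 5 of 6 measured, reached 427 in Dnmt1KO replicate 2 and 30.4 to 89.8 in the other 5 libraries. All 8 erythroid markers had a positive log2 difference, with a median of 0.51 and 0 called. They summed to 1870 to 3139 rpm in Dnmt1KO and 1378 to 1889 in WT. The groups also overlapped in the sums of endothelium (466 to 628 and 358 to 600), macrophage (64.7 to 69.7 and 65.3 to 77.3) and neuron markers (17.3 to 37.1 and 10.4 to 61.8). The part of these cell types in the members' values was not tested. Reads from 4 genes of the Y chromosome numbered 3 in Dnmt1KO replicate 1 and 4155 to 5207 in the other 5 libraries.

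None of the 97 zinc finger genes differed between the groups at an adjusted p under 0.05. By limma with Benjamini-Hochberg adjustment over all 14162 genes, 0 were higher and 0 lower, against 0.282% of all genes called higher and 0.00706% called lower, or 0.29% in either direction. The smallest adjusted p of any member was 0.796. At an unadjusted p under 0.05 there were 2 members, against 4.52% of all genes. With limma's voom on the whole reads, 0 passed and 2 had an unadjusted p under 0.05. The median log2 difference of the 97, Dnmt1KO minus WT, was 0.038, and the median of all genes was -5.9e-05. The differences of 87 members were under 0.2 in size, a band that held 80.3% of all genes.

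The intervals show how large a change in whole-lung RNA these libraries leave room for. Cells outside the Cre lineage add to that RNA, so a change confined to the epithelium could be larger than these bounds. The 95% interval of the log2 difference stayed within a 2-fold change in either direction for 95 of the 97 members, against 87.4% of all genes, and within a 1.5-fold change for 76 members, against 72% of all genes. The 2 members with wider intervals were Zfp990 and Zfp992, both in a run on chromosome 4. Each interval stands for its own gene and is not adjusted for the number of genes.

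**Figure D1:**
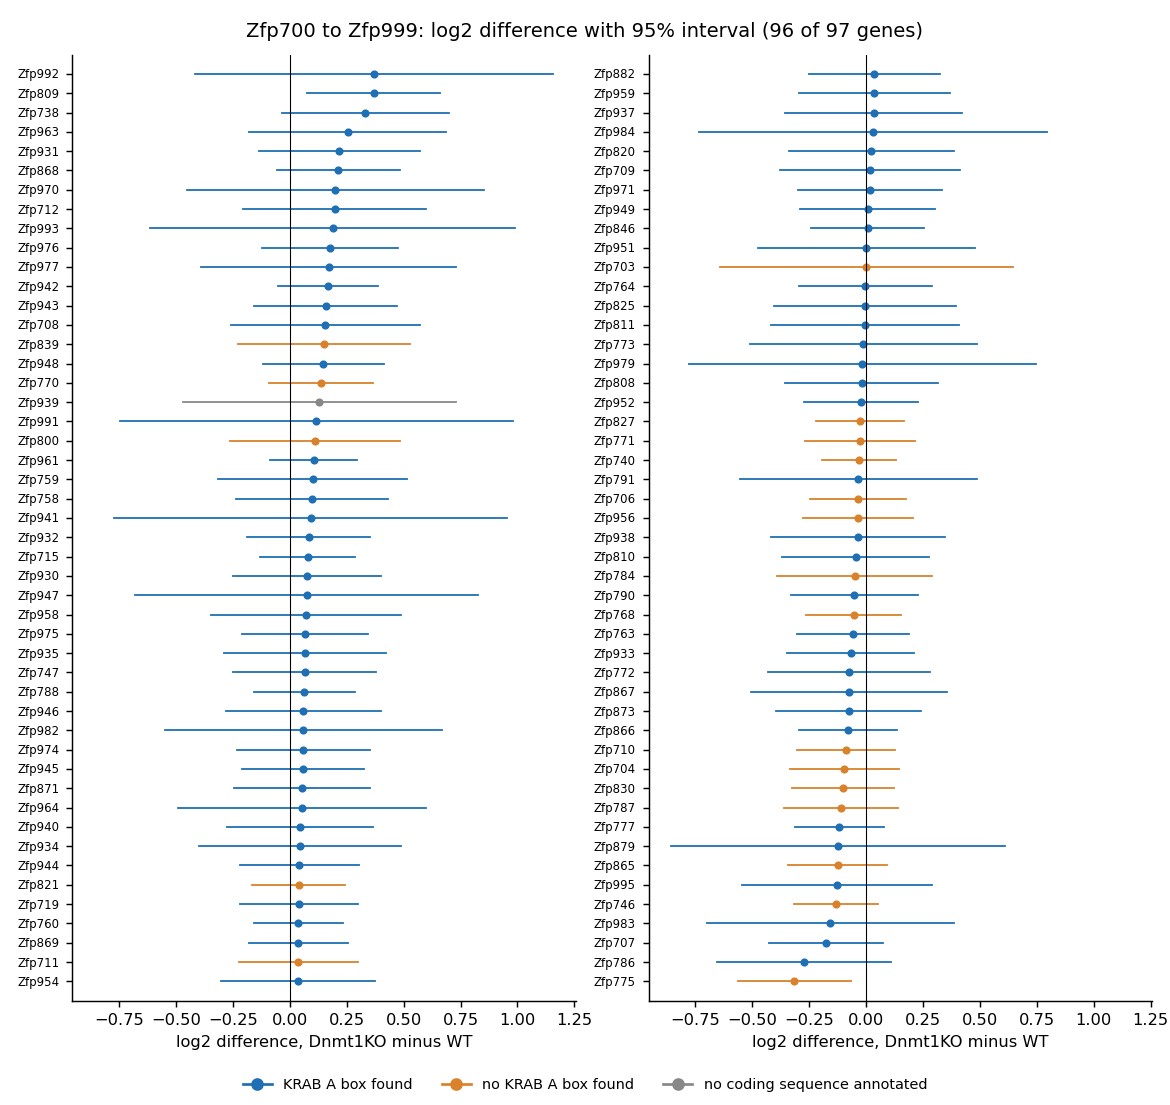
Log2 difference of each member, Dnmt1KO minus WT (horizontal axis), with its 95% interval from limma, sorted by difference and coloured by whether a KRAB A box was found. Of 97 genes, 96 are drawn, and Zfp990, at 2.73, lies outside the axis; only the intervals of Zfp809 and Zfp775 among those drawn leave out 0.

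Among members with a KRAB A box, Zfp809 had the smallest p. Zfp809 silences murine leukaemia viruses and related retroelements, whose primer binding site for proline tRNA it recognises. It stood at log2 values of 10.31, 10.40 and 10.29 in Dnmt1KO and 9.84, 9.9999 and 10.06 in WT, with 227, 267 and 259 reads against 229, 202 and 242 before scaling. Every Dnmt1KO library lay above every WT library. Its mean in Dnmt1KO was 129% of that in WT, or 0.37 ± 0.13 (SE) on the log2 scale, with a 95% interval of 0.08 to 0.66. It did not pass over all genes (limma, unadjusted p = 0.0194, adjusted p = 0.808). Leaving out 1 library at a time gave differences of 0.31 to 0.42. Its longest transcript shared 0% of its 50-base words with the transcripts of other genes.

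Zfp738, a KRAB gene on chromosome 13 with 20 fingers, stood at 10.65, 10.63 and 10.52 in Dnmt1KO against 10.49, 10.37 and 9.94 in WT. The groups did not overlap, though WT replicate 3 lay well below the other WT libraries. The difference was 0.33 ± 0.16 (limma adjusted p = 1) and fell to 0.17 without WT replicate 3. Of its exon sequence, 1505 bases overlap a gene on the opposite strand, and no source used here says whether reads were counted by strand.

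The remaining KRAB members with a small p and a higher level in Dnmt1KO had differences of 0.17 to 0.25. Zfp942 stood at 11.12, 11.10 and 11.14 against 10.95, 10.92 and 10.99, a difference of 0.17 ± 0.10. Its groups did not overlap, and its range over the 6 libraries was 0.23. Zfp868 and Zfp963 belong to the same run on chromosome 8 and stood 0.21 ± 0.12 and 0.25 ± 0.19 higher. Without Dnmt1KO replicate 1 Zfp868 was at 0.10, without WT replicate 3 Zfp963 was at 0.14, and without WT replicate 2 Zfp931, described next, was at 0.34. Zfp931 (0.22 ± 0.15) and Zfp976 (0.18 ± 0.13) were the others, and Zfp770, without the KRAB A box, stood 0.14 ± 0.10 higher. In each of these 5 genes the groups overlapped, and all of these genes had an adjusted p of 1 by limma.

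Of the KRAB genes that were to be named whatever their values, Zfp809 and Zfp738 are described above, and the other 3 differed by 0.08 to 0.16. Zfp932, which binds class II endogenous retroviruses and has the close copy Gm15446, stood at 11.26, 11.16 and 11.40 in Dnmt1KO and 11.08, 11.35 and 11.13 in WT, a difference of 0.08 ± 0.12 that ran from 0.020 to 0.17 as libraries were left out in turn. It shared 45.2% of its 50-base words with other transcripts. Zfp708, which protects methylation at one family of retroelements in the oocyte and early embryo, stood at 9.54, 9.80 and 9.68 against 9.50, 9.80 and 9.26, a difference of 0.16 ± 0.18, or 0.027 without WT replicate 3 and 0.30 without WT replicate 2. All of its words occur in transcripts of other genes, with Gm28557 as the main partner, so its reads cannot be assigned to it alone. Zfp961 stood 0.11 ± 0.08 higher, at 11.70 to 11.74 against 11.57 to 11.64, and its groups did not overlap.

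Zfp775, in which 11 fingers and no KRAB A box were found, had the lowest log2 difference of the 97. It stood at 10.77, 10.79 and 10.83 in Dnmt1KO and 10.996, 11.24 and 11.09 in WT, with 312, 350 and 375 reads against 510, 479 and 496. The groups were apart, with Dnmt1KO the lower. Its mean in Dnmt1KO was 80.4% of that in WT, or -0.31 ± 0.11 on the log2 scale, with a 95% interval of -0.56 to -0.07. It did not pass over all genes (limma, unadjusted p = 0.0189, adjusted p = 0.796). Of its exons, 209 bases overlap another gene on the same strand and 522 bases one on the opposite strand.

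Next to Zfp775 in p among the lower genes were members of a run on chromosome 6. Zfp746 encodes PARIS, a substrate of the ubiquitin ligase parkin and a repressor of the mitochondrial regulator PGC-1α, and stood at 12.74, 12.83 and 12.67 against 12.90, 12.90 and 12.84 (-0.13 ± 0.08). Zfp786 stood at 9.01, 9.27 and 9.41 against 9.57, 9.42 and 9.52 (-0.27 ± 0.17). Both kept all Dnmt1KO libraries below all WT libraries, while Zfp777 (-0.12 ± 0.09) overlapped. With Zfp956 these 4 genes form the run, its median difference was -0.13, and all 4 were negative. A single sign was not particular to this run, since all 3 members were positive in the runs that hold Zfp708, Zfp975 and Zfp709. Elsewhere Zfp707 (-0.18 ± 0.11), on chromosome 15, had groups that did not overlap, and Zfp865 (-0.12 ± 0.09), Zfp787 (-0.11 ± 0.11) and Zfp830 (-0.10 ± 0.10), a nuclear protein needed for survival of the early embryo, overlapped. All of these had an adjusted p of 1 by limma. Single libraries moved several of them: without Dnmt1KO replicate 1, Zfp787 was at -0.018, Zfp830 at -0.060 and Zfp786 at -0.16. Zfp865 was at -0.044 without Dnmt1KO replicate 3, and without WT replicate 2 Zfp777 was at -0.064 and Zfp830 at -0.063. Zfp787 was at -0.20 without Dnmt1KO replicate 3.

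**Figure D2:**
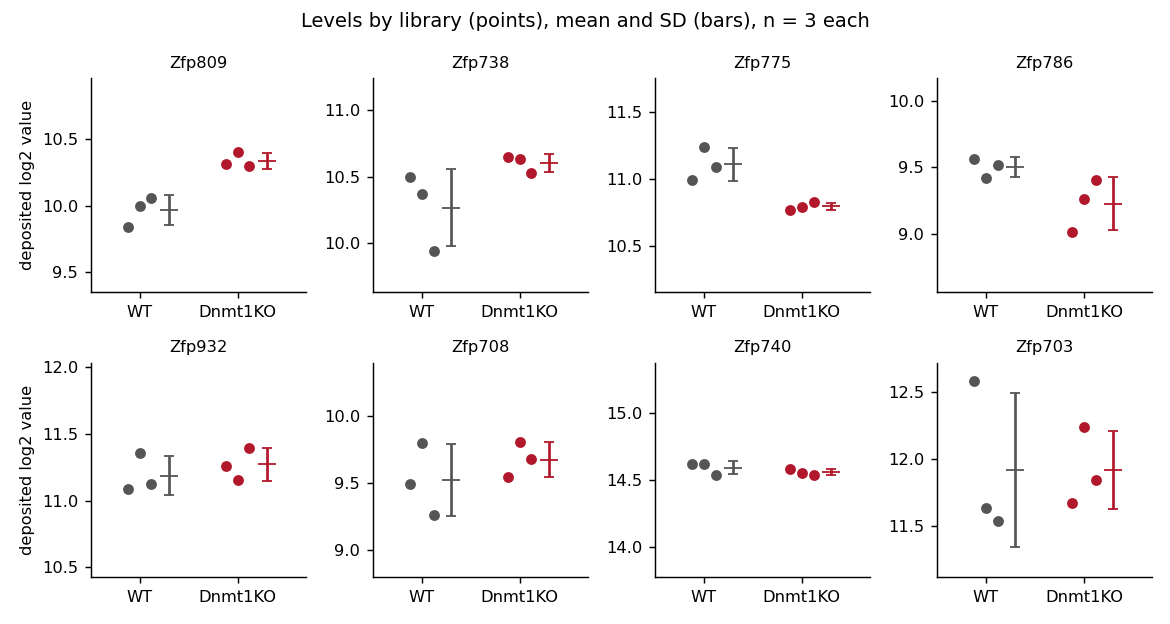
Deposited log2 values (vertical axis, each panel spanning 1.6 log2 units) of 8 members by library, with WT in grey and Dnmt1KO in red, and the mean ± SD (n = 3 each) beside the points. Groups are apart in Zfp809, Zfp738, Zfp775 and Zfp786 and overlap in Zfp932, Zfp708, Zfp740 and Zfp703.

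Over the 97 genes, 6 had every Dnmt1KO library above every WT library (6.19%, against 4.79% of all genes) and 4 had every one below (4.12%, against 3.99%). The 6 were Zfp712, Zfp715, Zfp738, Zfp809, Zfp942 and Zfp961, all with the KRAB A box, and the 4 were Zfp707, Zfp746, Zfp775 and Zfp786. These shares were near those of all genes.

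The members in which no KRAB A box was found include factors with roles outside retroelement silencing. Those named next had small differences. In Zfp775 and Zfp746, described above, no box was found either, and their groups were apart. Zfp746 had the highest profile score of these members, at 1.76 bits, and a box that differs much from the profile would be missed. Zfp703, a corepressor linked to luminal breast cancer, differed by 0.0011 ± 0.28, at 11.67, 12.24 and 11.84 in Dnmt1KO and 12.58, 11.63 and 11.53 in WT. WT replicate 1 was the highest of the 6, and without it the difference was 0.33. Zfp711, on the X chromosome, whose human counterpart is a gene of intellectual disability, differed by 0.04 ± 0.11. It stood at 11.31 in Dnmt1KO replicate 1, the library with almost no reads from the Y chromosome, and at 11.18 to 11.49 in the other 5. Zfp827, which recruits a chromatin remodelling complex to telomeres, differed by -0.03 ± 0.08, Zfp768 by -0.05 ± 0.09, Zfp704 by -0.09 ± 0.11 (-0.0088 without Dnmt1KO replicate 3), Zfp706 by -0.03 ± 0.09 and Zfp800 by 0.11 ± 0.16. Their groups overlapped.

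Per length, the members without the KRAB A box were the more abundant. Reads per kilobase of annotated exon, scaled to the library total as in RPKM, had a median of 9.36 in WT and 8.70 in Dnmt1KO for the 20 genes without the box, and of 3.06 and 3.22 for the 76 with it, beside 7.14 and 7.24 over all genes with an exon length. Zfp740 was highest on this scale, at 47.0 ± 1.3 in WT and 46.5 ± 0.77 in Dnmt1KO (SD, n = 3 each), followed by Zfp771 at 36.6 ± 3.5 and 36.3 ± 3.1 and Zfp706 at 34.7 ± 3.3 and 34.1 ± 1.0. The last pair do not differ beyond their spread. Zfp964 was lowest, at 0.300 ± 0.043 and 0.314 ± 0.036. The log2 values of Zfp740 spanned 0.09 over the 6 libraries.

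**Figure D3:**
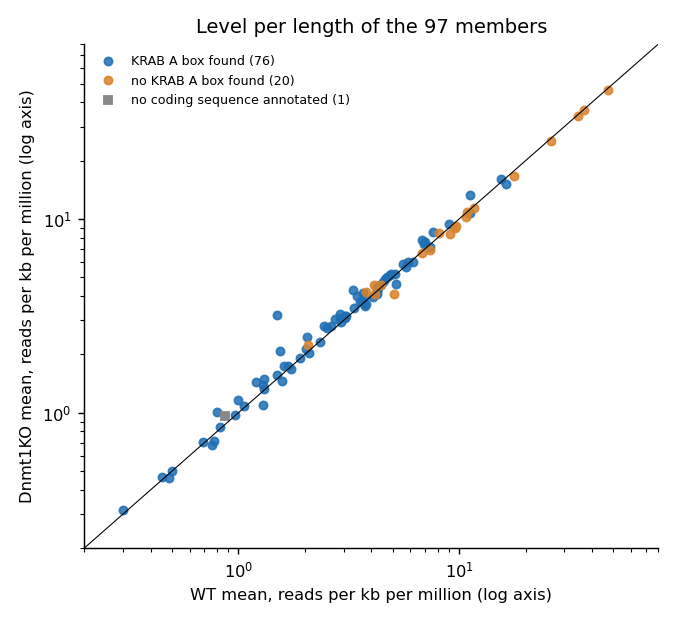
Mean level per length of the 97 members in WT (horizontal axis) and Dnmt1KO (vertical axis), in RPKM on log axes, with the line of equal levels. Members without a KRAB A box reach 47.0 in WT and those with it 16.3, and Zfp990, at 1.49 in WT and 3.20 in Dnmt1KO, stands farthest from the line.

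By class, 53 of the 76 KRAB genes and 6 of the 20 others had a positive log2 difference, with medians of 0.043 and -0.034, beside 50% and -5.9e-05 for all genes. After quantile normalization the KRAB genes had a median of -0.023 with 32 of 76 positive, so that direction depends on the scaling. In each library the median of the KRAB genes lay 0.040, 0.051 and 0.072 above their WT mean in Dnmt1KO and at -0.070, 0.056 and 0.017 in WT, so WT replicate 2 fell inside the Dnmt1KO range. Other symbols of Zfp and a number, 221 in all, had a median of -0.016, with 0 called and 2 at an unadjusted p under 0.05 by limma. Of those, 105 had a KRAB A box and a median of 0.023. No difference between these classes was tested.

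CG counts before the start were set beside the differences. The 31 members with under 7 CG had a median log2 difference of 0.059, the 30 with 7 to 12 CG one of 0.038 and the 25 with more than 12 CG one of -0.026. Across the 86 genes with a window, Spearman's rho between CG count and log2 difference was -0.18, as a description across genes that share the 6 libraries. Zfp777, with the CG-rich window printed above, differed by -0.12, and Zfp738, with 5 CG, by 0.33. The count of CG says nothing of whether these bases were methylated in these lungs.

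**Figure D4:**
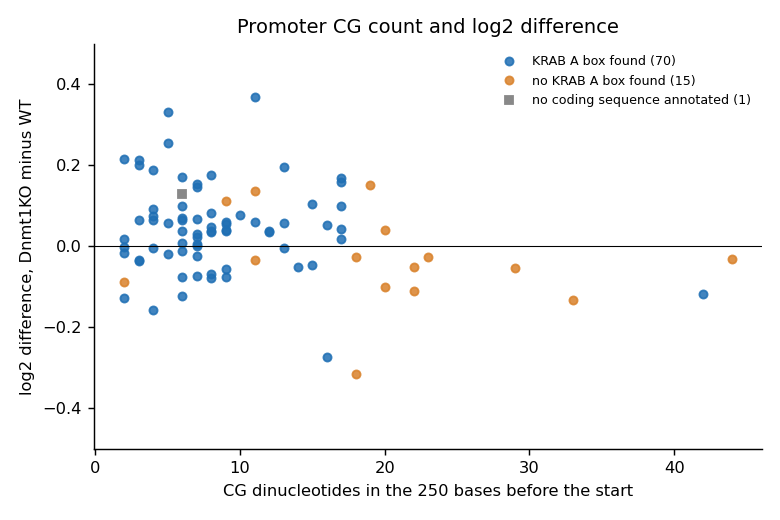
CG count in the 250 bases before the start (horizontal axis) and log2 difference, Dnmt1KO minus WT (vertical axis), of the 86 members with a RefSeq window, coloured by whether a KRAB A box was found. Members with the box crowd at low counts, with a median of 7, where points lie on both sides of 0.

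The spread between libraries was largest in the run on chromosome 4, a cluster of recently duplicated KRAB genes, several of which act on retroelements in the mouse embryo. Its 8 members had a median range of 1.09 log2 units over the 6 libraries, against 0.36 for the other members and 0.42 for all genes, and 6 of them were among the 10 members with the widest range. The median read total of its genes was 832.5 over the 6 libraries, against 1630 for the 97 members. Of the 8, 6 shared over 20% of their 50-base words with other transcripts, as 22 of the 97 members did. The part of read number and of shared sequence in this spread was not tested.

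Zfp990 was the extreme case. It had 215, 149 and 303 reads in Dnmt1KO replicates 1, 2 and 3 and 155, 1 and 222 in WT replicates 1, 2 and 3, or log2 values of 10.23, 9.56 and 10.52 against 9.28, 2.92 and 9.94. WT replicate 2 thus stood at 0.517% of the median of the other 5 libraries after scaling. The log2 difference of 2.73 ± 1.95, the highest of the 97, did not pass (limma adjusted p = 1) and was 0.50 without that library.

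Zfp992, in the same run, had nearly the reads of Zfp990 only in replicate 3 of each group. There it had 304 in Dnmt1KO and 222 in WT, beside the 303 and 222 of Zfp990. In Dnmt1KO replicates 1 and 2 it had 142 and 124, against 215 and 149 for Zfp990. In WT replicates 1 and 2 it had 126 and 136, against 155 and 1. It had log2 values of 9.64, 9.30 and 10.52 in Dnmt1KO and 8.98, 9.43 and 9.94 in WT, a difference of 0.37 ± 0.34 that fell to 0.019 without Dnmt1KO replicate 3. Zfp991 had values of 8.74, 8.54 and 9.55 against 8.08, 9.29 and 9.12, and Zfp993 of 6.97, 7.41 and 8.09 against 7.02, 7.45 and 7.44. These 3 genes and Zfp990 were highest in Dnmt1KO replicate 3. Of their words, Zfp991 shared 86.7%, Zfp992 43.0% and Zfp993 86.8% with other transcripts. Zfp991 was the main partner of Zfp992 and Zfp993, and whether their reads are separate was not tested. Zfp984 was low in Dnmt1KO replicate 2 (9.23) and WT replicate 1 (9.12) and between 10.07 and 10.16 elsewhere, and Zfp979 and Zfp982 were highest in WT replicate 2, at 8.26 and 8.37. Zfp933, the member of the run that shares only 1.07% of its words, ranged over 0.35.

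Values that moved with these libraries were looked at beside them. Erythroid markers, with 8 of 8 measured and none at 0 reads, summed to 3139 rpm in Dnmt1KO replicate 3 and 1378 in WT replicate 1, the highest and lowest of the 6, with 1870 to 2253 in the other 4. Of the run, Zfp991 and Zfp992, which share sequence, were highest and lowest in those same libraries. Zfp990 was lowest in WT replicate 2, Zfp993 in Dnmt1KO replicate 1, and Zfp933, Zfp979, Zfp982 and Zfp984 were not highest in Dnmt1KO replicate 3. This pattern was not particular to the erythroid list. Germ cell markers were also highest in Dnmt1KO replicate 3 (127 rpm) and lowest in WT replicate 1 (0.703 rpm). Lung epithelium markers were highest in Dnmt1KO replicate 3 (896 rpm) and lowest in Dnmt1KO replicate 2 (613 rpm). The remaining lists were highest in other libraries. The part of blood cells or of other cells in these values was not tested. For WT replicate 2, where Zfp990 had 1 read, the erythroid sum was 1888.

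**Figure D5:**
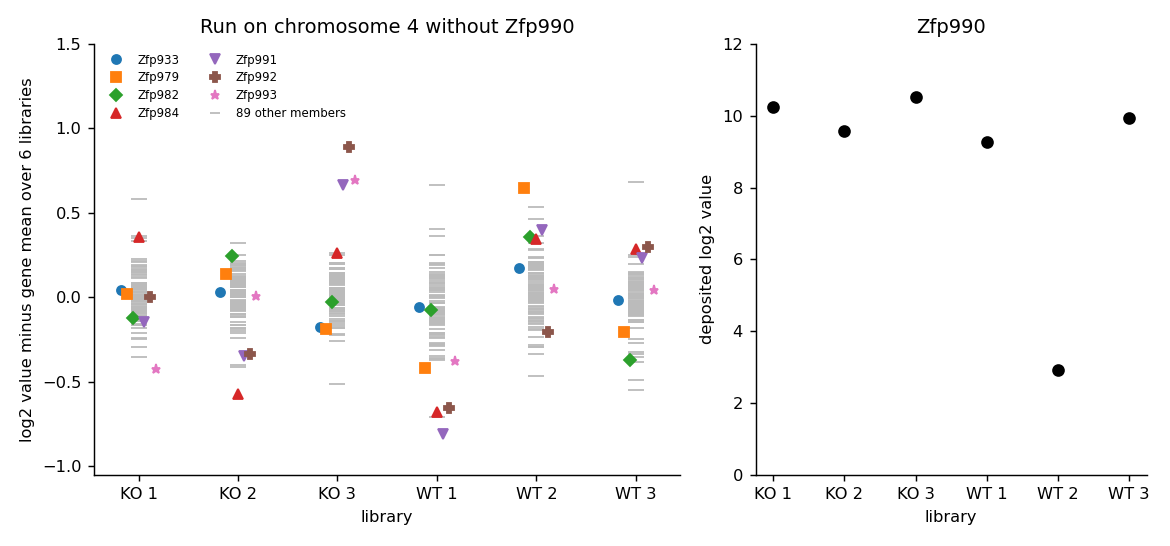
Left, log2 value minus the mean of the gene over the 6 libraries (vertical axis) by library for 7 members of the run on chromosome 4 (coloured marks) and the 89 members outside it (grey dashes). Right, deposited log2 values of Zfp990, which lie between 9.28 and 10.52 in 5 libraries and at 2.92 in WT replicate 2.

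Outside that run, the 16 members with over 20% shared words had a median range of 0.37 and the 73 others one of 0.36. The widest of the 16 were Zfp947 and Zfp970. Zfp970 on chromosome 2, which shares 52.2% of its words with other transcripts, had log2 values of 11.19, 10.43 and 10.51 in Dnmt1KO and 10.39, 11.07 and 10.06 in WT, high in 1 library of each group. Zfp947, on chromosome 17, shares 20.05% and ranged over 1.24. Zfp941, with 2.63% shared, ranged over 1.15 on 30 to 77 reads per library. Among the other runs, the largest, 12 genes on chromosome 17, had a median log2 difference of 0.059 and values between -0.16 and 0.17.

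In the corepressor machinery that KRAB proteins use, no gene passed. Of 20 measured genes, from Trim28 and Setdb1 to heterochromatin proteins, histone deacetylases, HUSH complex members and DNA methyltransferases, 0 passed in either direction by limma and 1, Dnmt1, had an unadjusted p under 0.05. Their median difference was -0.0091. Trim28 stood at 16.58, 16.46 and 16.48 in Dnmt1KO and 16.58, 16.63 and 16.50 in WT (-0.06 ± 0.08), and Setdb1 at 13.96, 13.98 and 13.88 against 14.02, 13.94 and 13.84 (0.01 ± 0.08). Uhrf1, which brings Dnmt1 to newly copied DNA, stood at 15.23, 15.04 and 15.17 against 15.26, 15.30 and 15.39 (-0.18 ± 0.08, adjusted p = 1 by limma), with every Dnmt1KO library below every WT library.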

How the data were processed

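The authors deposited 1 table per library, 3 Dnmt1KO and 3 WT, holding Ensembl identifiers and log2 values under the heading SIGNAL, per the file headers. STAR, limma and mm9 appear in the submitters' processing notes, with no role or order. Counter, annotation and scaling: not given in the sources used here. Raising 2 to each value gave whole reads plus 0.5 times a constant of the library for 100% of the 14162 genes within 1e-06 reads. The lowest gene total was 60 reads, so genes below it were not analysed here.

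Symbols, exons and coding sequences came from GENCODE M21 (GRCm38), which named 13967 identifiers. The deposited log2 values of all genes were tested with limma (version 3.58.1, R 4.3.3), with trend and robust estimation and Benjamini-Hochberg adjustment at 0.05, and was tested on simulated data. A KRAB A box was a score of at least 25 bits over a window of 38 residues, with a profile built from these proteins. Fingers were counted as C, 2 or 4 residues, C, 12 residues, H, 3 to 5 residues, H. Shared words are the 50-base words of the longest transcript found in another gene. Runs allowed at most 5 protein-coding genes between members. CG was counted in the first RefSeq window listed for a gene.

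Members and lists were chosen with earlier results of these data known. Named were the 8 members with the smallest p in each direction, the 3 most extreme differences each way, a fixed set of 16 members of which 14 were measured, and Dnmt1, Trim28, Setdb1 and Uhrf1. Other members were chosen after their values were seen. Alternatives were a replicate block, removal of the lowest 25% of genes, quantile normalization, median centring, library totals, voom, plain moderation, sample weights and leaving out each library.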

Additional observations from a re-analysis of the deposited data

How the results depend on the processing

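No member passed an adjusted p of 0.05 under any of the 14 alternatives run, and the lowest adjusted p of any member was 0.388, for Zfp775 with sample weights. The members' median was -0.024 with quantile normalization, where 38 of 97 were positive and not 60, and that of the KRAB genes -0.023. As each library was left out, the median of the KRAB genes ran from 0.014 to 0.091, that of the members without the box from -0.077 to -0.028, and that of the corepressor list from -0.046 to 0.011. Of the 32 genes named by the rule, 24 kept their sign under every alternative. With sample weights Zfp992 was at -0.022, Zfp711 at -0.055, Zfp768 at 0.018 and Zfp827 at 0.038. As each library was left out, Zfp703 ran from -0.19 to 0.33, Zfp711 from -0.040 to 0.10, Zfp827 from -0.073 to 0.021, Zfp706 from -0.081 to 0.052, Zfp800 from -0.023 to 0.21 and Setdb1 from -0.036 to 0.051, and Zfp990 ran from 0.50 to 4.004. The causes were not tested.

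The labels do not say that replicate numbers pair the samples. Deviations of same-numbered libraries from their group means correlated at -0.18 to 0.31, and 1 of 3 pairs was above 0.1. Within a group of 3 these deviations depend on each other, so the check cannot decide whether samples were paired. With the replicate number as a block, 0 members passed and the members' median was 0.038. Over all genes the block gave 26 calls, against 41. The 40 genes called higher became 0 with the lowest 25% of genes removed, a step that left 68 members and 10621 genes, 15 without Dnmt1KO replicate 1 and 25 without Dnmt1KO replicate 2 or WT replicate 3. The 1 called lower became 17 without Dnmt1KO replicate 3, 12 with sample weights and 3 without WT replicate 1. Few reads limit the least expressed members, with 216 to 30668 reads per member over the 6 libraries.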
